A study of Homo sapiens with 6 samples.

Results

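The genes described here are 42 genes of the kinetochore, the centromere and the spindle checkpoint, chosen by their symbols. All 42 were found among the 58735 genes of the deposited counts table, and all 42 were among the 15160 genes with enough counts to be tested. They were measured by poly(A)-selected RNA-seq in ACHN, an established human renal carcinoma cell line that the submitters label as clear cell renal cell carcinoma of wild-type genotype. The groups were 3 libraries of control cells and 3 libraries of cells treated with curcumol, a sesquiterpenoid of Curcuma rhizomes. The control is called a vehicle control in the sample labels and untreated in the design text, so which of these it was is uncertain, and the sources used here give neither its dose nor its duration. The series asked how curcumol acts on glycolysis and malignant behaviour, and the comparison below gives the response of the chromosome segregation genes.

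A kinetochore is built at each centromere on nucleosomes that carry the histone H3 variant CENPA. An inner layer of proteins, the constitutive centromere-associated network (CCAN), binds these nucleosomes and holds an outer layer, the KNL1, MIS12 and NDC80 complexes, which binds spindle microtubules. Until all kinetochores are attached, the spindle checkpoint keeps CDC20 from activating the anaphase-promoting complex, and the kinases Aurora A, Aurora B and PLK1 build the spindle and correct faulty attachments. Many of these genes are transcribed mainly in G2 phase and mitosis, so their mRNA in a culture is known to follow the share of dividing cells. In bulk RNA, fewer cells in mitosis and less mRNA per cell cannot be told apart.

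The libraries held 16962012 to 17827433 counts each. The 42 genes together took 0.360% to 0.389% of all counts in control libraries and 0.271% to 0.295% in curcumol libraries. Levels are given as CPM, counts scaled to a common library size, after TMM scaling, a correction for differences in library composition. The TMM factors were 1.089 to 1.103 in control and 0.9003 to 0.9195 in curcumol. They thus differed by group, and small changes depend on this scaling, as results with library totals show below. In TMM-scaled CPM the members summed to 3310 to 3534 in control and 3016 to 3220 in curcumol, so the groups did not overlap. Of 10 renal markers, 7 were tested, PAX8 and KRT18 among them, and all 7 were called lower, where 40.3% of all genes tested were. The groups of KRT18 overlapped, and with an offset for GC content, described further below, KRT18 was called higher (log2 fold change 0.14, edgeR adjusted p = 0.0248). LRP2 had 0 counts in all 6 libraries and CDH6 had 1 count in all. CA9, which marks clear cell tumours, was nearly absent, with 0, 1 and 0 counts in the control libraries and 0, 2 and 3 in the curcumol libraries. The 8 markers of blood, endothelium and fibroblasts summed to 4.74 to 5.49 CPM in control and 3.33 to 9.66 CPM in curcumol, with CD3E at 0 in all libraries. PTPRC was at 0 in each control library and at 5, 8 and 7 counts after curcumol, and COL3A1 at 0 and at 28, 58 and 23 counts. COL1A1, another fibroblast marker, was called lower, going from 100, 91 and 94 counts to 14, 66 and 27. The part of these markers in the results below was not tested.

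In curcumol-treated cells the kinetochore genes moved in both directions. The mRNAs of the centromeric histone CENPA, its loading factors HJURP and OIP5, the CCAN subunits CENPM and CENPI, the NDC80 complex subunits SPC24 and SPC25, the checkpoint target CDC20 and the kinase PLK1 fell, whereas those of CENPQ, CENPU, CENPL, SKA1, BUB1B and TTK rose. In all, 22 of 42 members fell and 15 rose (edgeR quasi-likelihood test, adjusted p under 0.05 with Benjamini-Hochberg adjustment over all genes tested). The 37 members called are to be read against a very wide response, since 79.7% of all genes tested were called, 40.3% of them lower and 39.4% higher as shares of the genes tested. The median log2 fold change of the members was -0.24, against -0.02 for all genes tested. The standard deviation of log2 fold changes was 1.21 over the members and 1.59 over all genes tested. Falls went further than rises: 9 members fell at least 2-fold and 2 rose at least 2-fold, where 23.1% and 21.3% of all genes did so. The 9 large falls were thus a share near that of all genes, and the 2 large rises a lower one. With an offset for GC content, which is described further below, 25 members fell and 10 rose.

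The curcumol libraries lay all below the control libraries for 24 members and all above them for 15, where 41.1% and 39.8% of all genes tested (81% in either direction) were separated in these ways. The remaining 3 members, NDC80, CENPE and CENPF, overlapped between the groups.

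**Figure D1:**
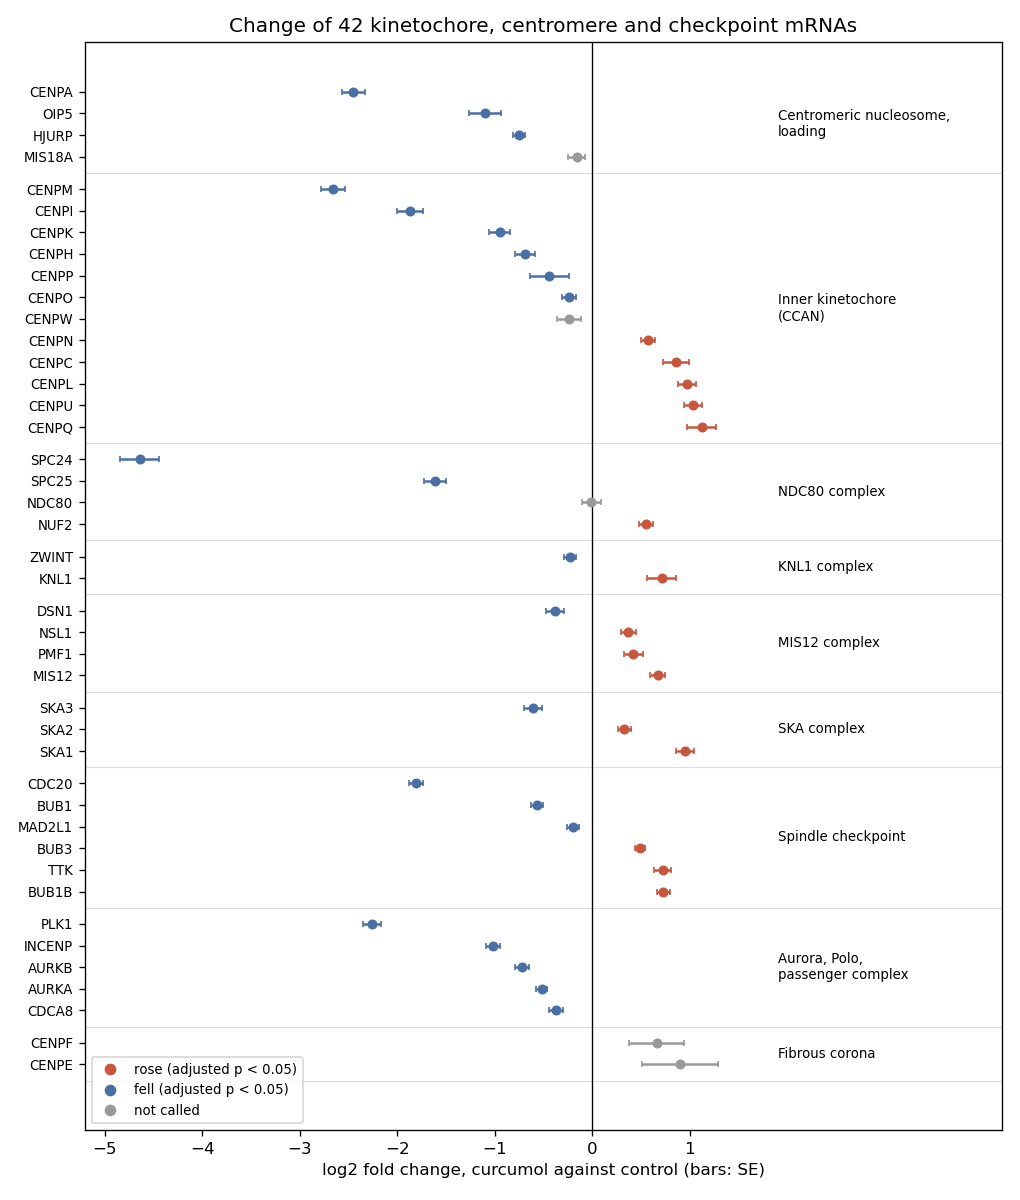
Log2 fold change (curcumol against control, x axis) of each of the 42 members (rows) with its standard error, grouped by complex. Blue points fell, red points rose and grey points did not pass the test. All 5 kinase and passenger complex genes lie to the left of 0, and the other complexes, apart from the loading factors and the fibrous corona, hold members on both sides. With a GC offset CENPO, NSL1 and SKA2 lie on the other side of 0.

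Of the 4 genes of the centromeric nucleosome and its loading, 3 fell, 0 rose and 1 did not pass. CENPA (ENSG00000115163, chromosome 2, 26764289 to 26801067, GRCh38) encodes the histone H3 variant that marks centromeres. It stood at 38.1, 40.3 and 37.9 CPM in the control libraries and at 8.58, 6.66 and 6.12 CPM in the curcumol libraries. Every curcumol library was thus far below every control library, and the log2 change came to -2.45 ± 0.12 (SE, edgeR adjusted p = 3.28e-14). HJURP, the chaperone that deposits CENPA, went from 171, 165 and 166 CPM to 106, 94.9 and 97.9 CPM, again without overlap, at -0.75 ± 0.06 (SE, edgeR adjusted p = 3.95e-10). Deposition also needs the Mis18 complex. Its subunit OIP5 (Mis18 beta) fell by 1.10 on the log2 scale, from 9.61 ± 0.54 to 4.47 ± 0.696 CPM (SD, n = 3). OIP5 shares 470 exonic bases with the noncoding gene OIP5-AS1 on the other strand, whose counts were also lower in curcumol (1203 to 1230 against 430 to 502), and no source says that strand was used in counting. CENPA shares 138 exonic bases with SLC35F6 on the same strand, whose counts were lower too. MIS18A stood at -0.16 and did not pass (edgeR adjusted p = 0.119), although its 3 curcumol libraries were below its control libraries. It passed, at -0.43, when libraries were scaled by their totals alone, and at -0.41 with a GC offset.

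The 12 CCAN genes went in both directions, with 6 lower, 5 higher and 1 that did not pass. The largest fall was that of CENPM (ENSG00000100162, chromosome 22, 41938721 to 41947164), which held 30.6, 29.5 and 31.5 CPM in control and 5.0, 4.83 and 4.61 CPM in curcumol. The 3 curcumol values were close together and 6.33-fold below control by the fitted change of -2.66 ± 0.12 (SE, edgeR adjusted p = 6.33e-15). CENPI (ENSG00000102384, chromosome X, 101098218 to 101163681) went from 21.3, 22.9 and 23.7 CPM to 5.25, 6.40 and 6.88 CPM, without overlap, at -1.87 ± 0.13 (SE, edgeR adjusted p = 1.07e-11). CENPM, CENPI, CENPH and CENPK belong to the same CCAN subcomplex. CENPK (-0.95) and CENPH (-0.69) fell as well, so all 4 genes of that subcomplex were lower.

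Another CCAN subcomplex is formed by CENPO, CENPP, CENPQ, CENPU and CENPR, the product of ITGB3BP. Here the genes went both ways. CENPQ (ENSG00000031691, chromosome 6, 49463378 to 49493107) had the largest fitted rise of the members, from 7.86, 7.17 and 10.7 CPM to 15.0, 21.2 and 19.9 CPM. The groups did not overlap, although values within each group differed by up to 1.49-fold, and the rise was 1.12 ± 0.15 on the log2 scale (SE, edgeR adjusted p = 1.56e-06). With a GC offset it was 0.39, below the rises of CENPL and SKA1 (0.67 each), CENPN and PMF1 (0.60 each), CENPU (0.46) and BUB1B (0.43). CENPU, whose product gives PLK1 a docking site at the kinetochore, rose by 1.03 ± 0.09 (SE) and ITGB3BP, which is not among the members, by 0.67 ± 0.13 (SE). CENPO (-0.24) and CENPP (-0.44) fell. With a GC offset CENPO stood at 0.06 (edgeR adjusted p = 0.413). CENPP, the least abundant member per length with 0.496 ± 0.0776 CPM per kilobase of joined exons in control (SD, n = 3), passed narrowly (edgeR adjusted p = 0.0452), and its call was lost under 12 of 16 other settings, among them leaving out control replicate 1 (-0.32, edgeR adjusted p = 0.19), control replicate 3 (-0.49, 0.0545), curcumol replicate 1 (-0.43, 0.0811) or curcumol replicate 2 (-0.37, 0.141). Both genes share exons with a gene on the other strand, CENPO 1488 bases with ADCY3 and CENPP 3719 bases with IPPK, and without strand such reads cannot be assigned.

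The CCAN subunits that touch the CENPA nucleosome itself are CENPC and CENPN. Both were higher while CENPA was lower. CENPC rose by 0.86 ± 0.13 (SE, log2 scale), its mean level going from 12.7 ± 1.27 to 22.9 ± 4.41 CPM (SD, n = 3), but by 0.29 with a GC offset (edgeR adjusted p = 0.02). CENPN rose by 0.57 and its partner CENPL by 0.97, from 26.7 ± 2.57 to 52.1 ± 1.73 CPM (SD, n = 3). CENPN shares 457 exonic bases with CMC2, which was also higher in curcumol. CENPW, a histone fold subunit of the CCAN and the shortest member at 795 bases of joined exons, stood at -0.24 (edgeR adjusted p = 0.0719). It passed without control replicate 2 (-0.30, edgeR adjusted p = 0.049) and without curcumol replicate 1 (-0.29, 0.0411). It also passed with a GC offset (-0.83, edgeR adjusted p = 2.64e-07), an exon length offset (-0.52, 0.000322), library totals (-0.51, 0.000675) and no filter on low counts (0.0388).

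The widest divergence lay within the NDC80 complex, the main microtubule binder of the kinetochore. It is a rod made of a NDC80-NUF2 pair, which touches the microtubule, and a SPC24-SPC25 pair, which ties the rod to the inner kinetochore. SPC24 (ENSG00000161888, chromosome 19, 11131520 to 11155808) stood at 18.2, 22.0 and 22.0 CPM in control and at 1.15, 0.816 and 0.505 CPM in curcumol, from 338, 427 and 427 counts against 18, 13 and 8. The fitted change was -4.64 ± 0.20 (SE, edgeR adjusted p = 6.59e-15), a 25.0-fold fall that ranked 31 of 15160 genes. SPC25 (ENSG00000152253, chromosome 2, 168834132 to 168913371) went from 28.4, 33.1 and 29.4 CPM to 8.71, 10.3 and 10.8 CPM, without overlap, at -1.61 ± 0.11 (SE, edgeR adjusted p = 1.95e-11).

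The other pair did not follow to this extent. NDC80 had 38.3, 29.6 and 38.5 CPM in control and 31.8, 36.0 and 37.3 CPM in curcumol. Its groups overlapped, and the log2 fold change of -0.01 ± 0.10 (SE) did not pass (edgeR adjusted p = 0.897). NDC80 was called lower, though, with library totals (-0.28, edgeR adjusted p = 0.0203) and with a GC offset (-0.50, edgeR adjusted p = 5.18e-06). NUF2 rose by 0.55 ± 0.07 (SE), from 60.6 ± 4.28 to 89.1 ± 5.65 CPM (SD, n = 3), and stood at 0.01 with a GC offset. Per length, the 4 subunits lay between 7.31 and 18.0 CPM per kilobase of joined exons in control. In curcumol they ran from 0.291 ± 0.114 for SPC24 and 5.40 ± 0.591 for SPC25 to 9.74 ± 0.797 for NDC80 and 26.5 ± 1.68 CPM per kilobase for NUF2 (SD, n = 3).

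The 250 bases before the SPC24 start are shown because SPC24 fell most of all members (RefSeq, GRCh38.p14, chr19:11155783-11156032, minus strand, printed in the direction of transcription). The 26 bases nearest the start lie in the first exon of SPC24 in GENCODE 29, and the rest lie outside the gene. Capitals mark CCAAT boxes, the motif of the factor NF-Y, on either strand, ATTGG being the reverse complement.
SPC24: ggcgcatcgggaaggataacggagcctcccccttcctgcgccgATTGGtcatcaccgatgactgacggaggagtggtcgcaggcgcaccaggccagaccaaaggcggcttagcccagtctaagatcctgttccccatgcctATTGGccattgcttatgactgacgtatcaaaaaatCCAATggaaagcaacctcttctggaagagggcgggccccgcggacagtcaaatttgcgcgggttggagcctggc

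**Figure D2:**
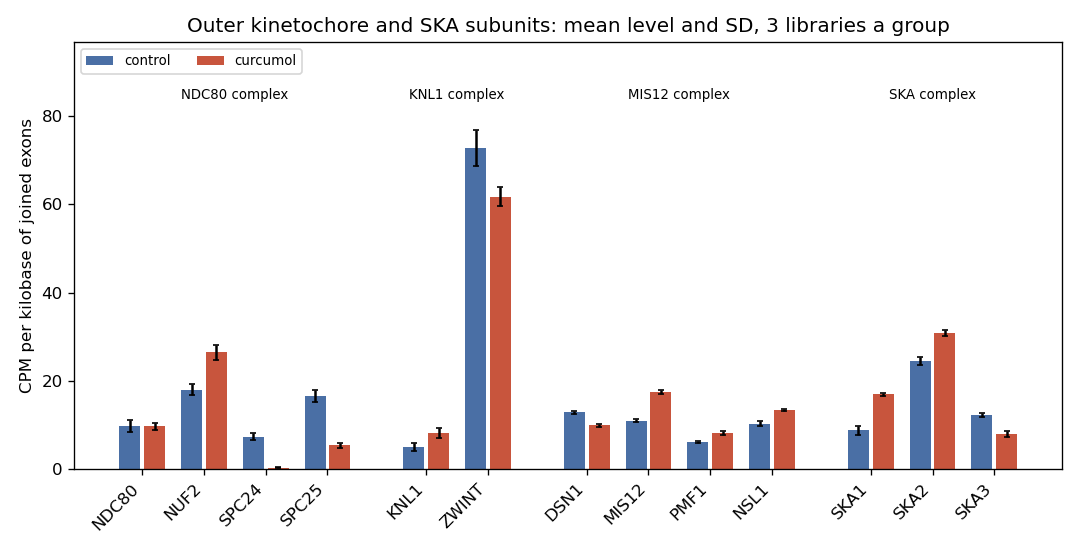
Mean level (CPM per kilobase of joined exons, y axis from 0) of the NDC80, KNL1, MIS12 and SKA complex genes in control (blue) and curcumol (red), with the SD of 3 libraries as bars. SPC24 drops to 0.291 CPM per kilobase and SPC25 to 5.40, while NDC80 is level between the groups and NUF2 is higher. With a GC offset the higher values of NSL1 and SKA2 turn into falls, NDC80 is called lower (log2 fold change -0.50) and NUF2 stands at 0.01.

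The KNL1 and MIS12 complexes changed less. KNL1, the scaffold that recruits the checkpoint proteins BUB1 and BUB3, rose from 49.7, 42.1 and 61.6 CPM to 69.9, 88.2 and 93.6 CPM. The groups did not overlap, but the spread within them was large, and the rise was 0.71 ± 0.15 on the log2 scale (SE, edgeR adjusted p = 0.00265). Its partner ZWINT fell by 0.23 on the log2 scale. In the MIS12 complex, which joins the outer to the inner kinetochore, MIS12 went from 33.8, 35.0 and 35.7 CPM to 54.4, 57.2 and 54.1 CPM, at 0.67 ± 0.08 (SE, edgeR adjusted p = 6.92e-08). MIS12 shares 301 exonic bases with DERL2 on the other strand. PMF1 (0.42) and NSL1 (0.37) rose too and DSN1 fell by 0.38. With a GC offset KNL1 stood at 0.14 (edgeR adjusted p = 0.171) and NSL1 at -0.21, a fall. With library totals PMF1 stood at 0.15 and NSL1 at 0.11 and neither was called.

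The SKA complex helps kinetochores hold on to shrinking microtubule ends. SKA1 rose by 0.95 ± 0.09 (SE), from 26.0 ± 2.77 to 50.2 ± 1.11 CPM (SD, n = 3), and SKA3 fell by 0.61, from 37.5 ± 1.40 to 24.5 ± 2.17 CPM (SD, n = 3). Both kept their direction and call under every setting tried. SKA2 rose by 0.33, was not called with library totals (0.06) and fell by 0.28 with a GC offset (edgeR adjusted p = 8.92e-05).

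The spindle checkpoint genes split evenly, with 3 higher and 3 lower. CDC20 (ENSG00000117399, chromosome 1, 43358955 to 43363203), the activator of the anaphase-promoting complex that the checkpoint holds back, was the most abundant member per length in control, at 163 ± 8.13 CPM per kilobase of joined exons (SD, n = 3). Its libraries stood at 345, 339 and 314 CPM in control and at 107, 92.4 and 84.7 CPM in curcumol. This was a fall without overlap, at -1.81 ± 0.07 (SE, edgeR adjusted p = 3.76e-15), or -1.31 with a GC offset. MAD2L1, which encodes the MAD2 protein that captures CDC20, stood at 118, 114 and 121 CPM in control and at 107, 99.1 and 101 CPM in curcumol. The groups did not overlap, but the fall was small, at -0.20 ± 0.06 (SE, edgeR adjusted p = 0.0061).

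The paralogs BUB1 and BUB1B moved in opposite directions. BUB1, a kinase that marks centromeric chromatin, went from 219, 216 and 232 CPM to 145, 151 and 153 CPM, at -0.57 ± 0.06 (SE, edgeR adjusted p = 9.22e-09). BUB1B, which encodes BUBR1, a part of the inhibitor of the anaphase-promoting complex, went from 85.4, 83.8 and 95.1 CPM to 141, 145 and 152 CPM, at 0.73 ± 0.07 (SE, edgeR adjusted p = 1.72e-09). In each control library BUB1 had more CPM than BUB1B, whereas in curcumol their mean levels were 149 ± 4.18 and 146 ± 5.51 CPM (SD, n = 3). Per kilobase of joined exons the level was 36.8 CPM for BUB1 and 19.7 CPM for BUB1B in control, and 24.8 and 32.6 CPM in curcumol.

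BUB3, the partner of both, rose from 315, 317 and 304 CPM to 437, 438 and 438 CPM, at 0.49 ± 0.05 (SE, edgeR adjusted p = 2.27e-08), but stood at 0.08 with a GC offset (edgeR adjusted p = 0.186). TTK, the MPS1 kinase that starts checkpoint signalling, went from 45.8, 38.5 and 50.3 CPM to 71.6, 77.5 and 72.4 CPM, at 0.72 ± 0.09 (SE, edgeR adjusted p = 1.48e-07). Its groups did not overlap. With a GC offset the rises of TTK and BUB1B were smaller, at 0.27 and 0.43, and both were still called.

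All 5 genes of the Aurora and Polo kinases and the chromosomal passenger complex fell, and all 5 kept their direction and call under every setting tried. PLK1 (ENSG00000166851, chromosome 16, 23677656 to 23690367), the Polo-like kinase needed for mitotic entry, spindle assembly and CENPA loading, went from 240, 239 and 216 CPM to 56.2, 48.6 and 40.3 CPM. The groups were far apart, at -2.26 ± 0.09 (SE, edgeR adjusted p = 2.32e-13), or -1.80 with a GC offset. AURKA, the spindle pole kinase, went from 178, 176 and 181 CPM to 129, 125 and 120 CPM, at -0.52 ± 0.06 (SE, edgeR adjusted p = 4.81e-08). AURKB, the kinase of the passenger complex, went from 159, 148 and 147 CPM to 101, 88.0 and 86.9 CPM, at -0.72 ± 0.07 (SE, edgeR adjusted p = 3.76e-09). Neither Aurora kinase had overlapping groups. INCENP, the scaffold of the passenger complex, fell by 1.02, or by 0.43 with a GC offset. CDCA8 (borealin) fell by 0.37, and BIRC5 (survivin), the fourth subunit and not among the members, by 0.48. The summed level of the 5 members was 726.6 to 778.5 CPM in control and 362.9 to 407.3 CPM in curcumol.

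CENPE, a kinesin motor, and CENPF, which binds microtubules and dynein regulators, form part of the fibrous corona, the outermost layer. Neither passed. CENPE stood at 26.7, 22.1 and 41.7 CPM in control and at 35.8, 69.4 and 63.6 CPM in curcumol (log2 fold change 0.90 ± 0.39, SE, edgeR adjusted p = 0.0926). CENPF stood at 306, 218 and 398 CPM in control and at 396, 547 and 513 CPM in curcumol (0.66 ± 0.28, SE, edgeR adjusted p = 0.0891). In both genes control replicate 3 was the highest control library and curcumol replicate 1 the lowest curcumol library. KNL1, CENPQ and further members had the same order, among them CENPC, CENPU, NUF2, SKA2, BUB1 and TTK. Without control replicate 3 both passed, CENPE at 1.19 (edgeR adjusted p = 0.0427) and CENPF at 0.88 (0.0254), and without curcumol replicate 1 CENPE passed at 1.14 (0.0435). With DESeq2 both passed as well (adjusted p = 0.0321 and 0.0275). CENPF (11690 bases), KNL1 (10250) and CENPE (9444) have among the longest joined exons of the members, whose median is 3259.5 bases. CENPQ and TTK, with the same order of libraries, have 1733 and 4579 bases. The part of mRNA length in this spread was not tested.

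**Figure D3:**
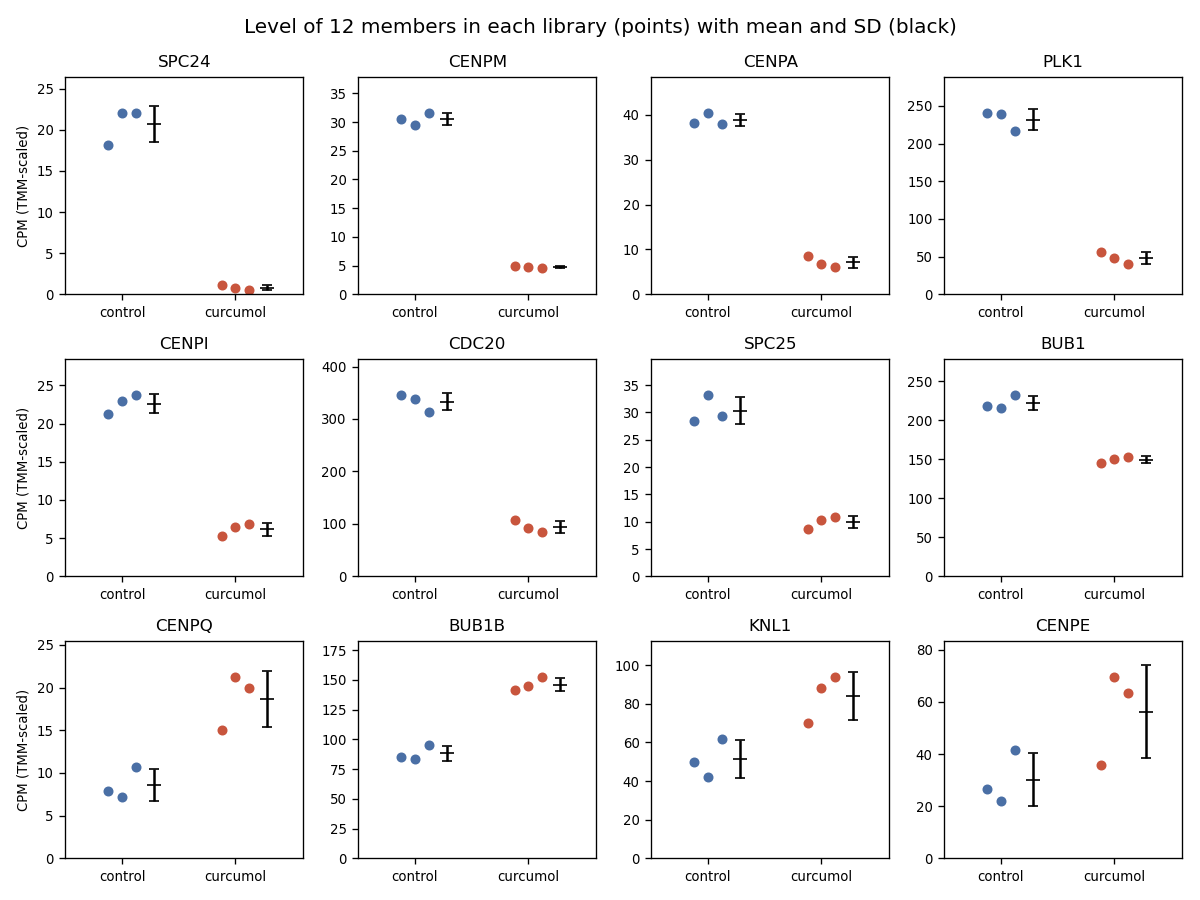
TMM-scaled CPM (y axes from 0) of 12 members in each of the 3 control (blue) and 3 curcumol (red) libraries, with mean and SD in black. The fall of SPC24, CENPM, CENPA and PLK1 is seen in each library. CENPE is the panel in which the groups overlap, with a curcumol library at 35.8 CPM and a control library at 41.7 CPM.

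Change differed with the base composition of the mRNA. Members that fell had a median GC content of 48.3% in their longest transcript, and members that rose 40.8%, against 48.0% over all genes tested. Across the 42 members, log2 fold change and GC content correlated at -0.56 (Pearson) and -0.52 (Spearman), and across 15154 genes tested at -0.29 and -0.34. These are descriptions across genes that share libraries, and genes are not independent replicates. When an offset for GC content was fitted in each library, 25 members fell and 10 rose. This offset was fitted without regard to group. It therefore removes a response to curcumol that differs with GC content along with any technical bias, and these cannot be told apart. The falls of SPC24 (-4.39), CENPA (-2.48), CENPI (-2.31), SPC25 (-2.10) and CENPM (-2.01) remained called, and CENPK, the member with the lowest GC content (32.9%), moved from -0.95 to -1.73. NDC80 was called lower at -0.50 (edgeR adjusted p = 5.18e-06), and BUB3, NUF2 and KNL1 lost their rise. The rises of CENPL, SKA1, CENPN, PMF1, CENPU, BUB1B, CENPQ, CENPC, TTK and MIS12 were called with and without the offset. Several were much smaller with it, CENPU going from 1.03 to 0.46 and MIS12 from 0.67 to 0.26, and CENPC, CENPQ and TTK shrinking as given above. Some falls were larger, MAD2L1 going from -0.20 to -0.72 and BUB1 from -0.57 to -0.92, and that of AURKB was smaller (-0.34). CENPW was called lower, as given above.

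**Figure D4:**
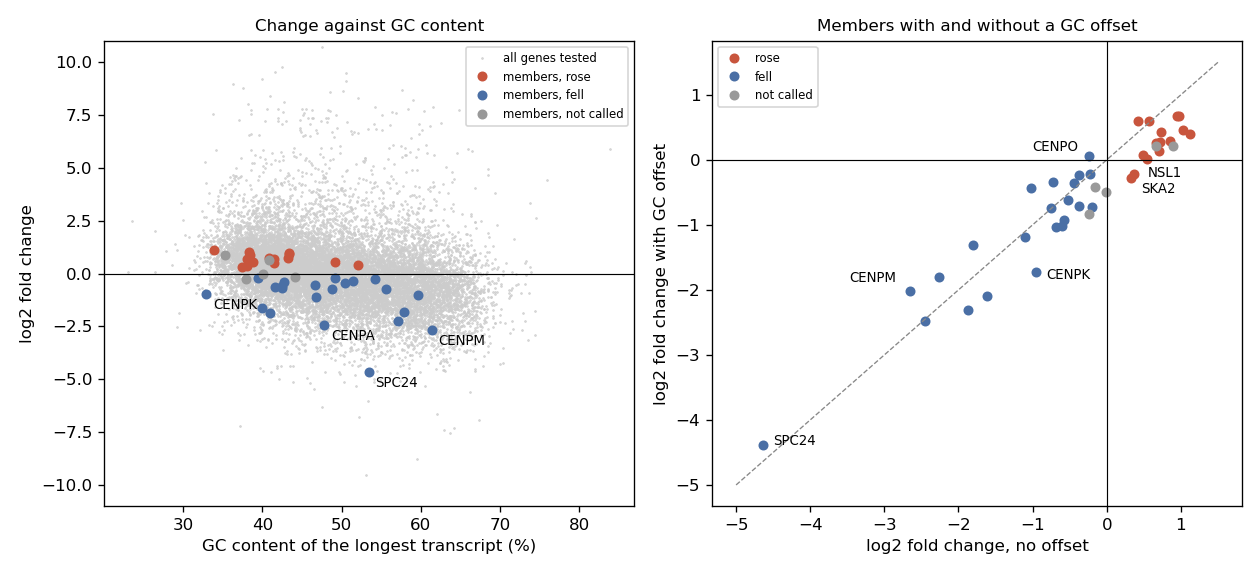
Left, log2 fold change (y axis) against the GC content of the longest transcript (x axis) for all genes tested (grey) and the members (coloured by their call); right, the members' log2 fold change with a GC offset (y axis) against that without one (x axis), the dashed line marking equal values. Members with lower GC content tend to lie higher in the left panel (Pearson correlation -0.56), with exceptions such as CENPK (32.9% GC, -0.95). In the right panel SKA2 and NSL1 change from a rise to a fall and CENPO crosses to 0.06, while SPC24 stays near -4.39.

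The promoters of the members were searched for motifs known from genes of G2 phase and mitosis, because members of 1 complex moved in different directions. RefSeq promoters of 300 bases (250 before and 50 after the start) were available for 34 members, all but AURKA, BUB3, CENPH, CENPL, CENPM, KNL1, MIS18A and TTK. A member was counted when any of its promoter entries held the motif, whereas the shares of all promoters count single entries. Members with several entries, such as ZWINT and MIS12, thus had more chances of a match, and the shares are not strictly alike. The cell cycle genes homology region (CHR) was searched as TTTGAA on both strands and was found in 18 of 34 members (52.9%), against 15.2% of 35116 promoters of the same length. Of the members that fell 11 of 19 held it, and of those that rose 5 of 11. The CCAAT box, searched as CCAAT on both strands, was found in 24 of 34 members (70.6%) against 34.6% of all promoters. A CHR spelled TTTGAA or TTCGAA together with a CCAAT box was found in 15 members (44.1%) against 6.38% of all promoters, namely in 11 of 19 that fell, 2 of 11 that rose (CENPC and CENPN) and 2 of 4 that were not called. The CHR spelling TTCGAA alone was found in 4 members (11.8% against 1.45%), and the E2F-type sites TTTGGCGC in 1 (2.94% against 0.652%) and TTTCCCGC in 2 (5.88% against 1.63%), on both strands, with overlapping matches counted. A match describes letters in the sequence and is not evidence that a factor binds, and the division between directions was not tested.

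The 30 bases around the TTTGAA nearest the start are shown for members in which this window lies within an available promoter, namely the 5 with the largest falls among them and the 4 that rose (RefSeq, GRCh38.p14, direction of transcription, TTTGAA or its reverse complement TTCAAA in capitals). CENPA lies at chr2:26786026-26786055, PLK1 at chr16:23678848-23678877, CDC20 at chr1:43358904-43358933, SPC25 at chr2:168890416-168890445 (minus strand) and INCENP at chr11:62123989-62124018. Of the risen genes, CENPC lies at chr4:67545576-67545605 (minus strand), BUB1B at chr15:40161034-40161063, CENPN at chr16:81007205-81007234 and NUF2 at chr1:163321958-163321987. The motif stands before the RefSeq start in CENPA, PLK1, CDC20, INCENP, CENPC and BUB1B. It spans that start in SPC25 and stands after it in CENPN and NUF2. These starts need not be those of GENCODE 29, by which the CDC20 window lies before its gene and the other windows lie within theirs.
CENPA: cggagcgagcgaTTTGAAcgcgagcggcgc
PLK1: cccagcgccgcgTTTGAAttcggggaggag
CDC20: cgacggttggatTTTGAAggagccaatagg
SPC25: aagtgcactaggTTTGAAatcggaaagttg
INCENP: tgagccttcagtTTTGAAaatcatagtttt
CENPC: tgtgtctccgggTTCAAAcccaggcacagg
BUB1B: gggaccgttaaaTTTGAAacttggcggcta
CENPN: gcaattggtggcTTTGAAggcgcggcgagc
NUF2: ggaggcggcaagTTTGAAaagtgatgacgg

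Among 16 genes listed as mitotic transcription regulators, not all of which act at promoters, 10 fell and 4 rose, where 40.3% of all genes tested fell and 39.4% rose. FOXM1, an activator of G2 and mitotic genes, fell from 201 ± 11.1 to 94.4 ± 3.02 CPM (SD, n = 3), at -1.09 ± 0.06 (SE), and shares 781 exonic bases with ITFG2, whose counts were also lower. The smallest p-values belonged to CCNF (-2.57), an F-box cyclin, and RBL2 (-2.35), the p130 pocket protein of the repressive DREAM complex, on the lower side, and LIN54 (2.96) and LIN52 (1.49), subunits of the MuvB core shared by the activating and the repressive complex, on the higher side. LIN54, the subunit that binds the CHR, rose from 19.7 ± 2.29 to 153 ± 8.75 CPM (SD, n = 3). With a GC offset FOXM1 stood at -0.71, CCNF at -2.08, RBL2 at -2.65, LIN54 at 2.42 and LIN52 at 1.21. Of 3 proliferation markers, MKI67 (-1.25) and TOP2A (-0.91) were called lower, while PCNA did not pass at -0.06. The part of a smaller dividing fraction in the members' falls was not tested.

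Beyond the members, 25 further kinetochore and spindle genes held 14 falls and 5 rises (median -0.30), to be read against the same 40.3% lower and 39.4% higher of all genes tested. CENPB, which binds a motif in centromeric satellite DNA, fell from 181 ± 5.89 to 24.0 ± 2.47 CPM (SD, n = 3), at -2.92 ± 0.08 (SE, edgeR adjusted p = 2.96e-18). NDE1, a dynein regulator brought to kinetochores by CENPF, fell by 1.77, and its paralog NDEL1 rose by 1.16. SUGT1, an HSP90 co-chaperone needed to assemble kinetochores, rose by 1.32. The 28 genes for checkpoint silencing, cohesion protection and anaphase held 13 falls and 10 rises (median -0.10), shares near those 40.3% and 39.4%. TRIP13, the ATPase that takes MAD2 off the checkpoint complex, fell by 1.80, and MAD2L1BP, its adaptor, rose by 1.17. Separase, ESPL1, fell by 1.43, and CDC26, a subunit of the anaphase-promoting complex, rose by 1.10. TRIP13 shares 182 exonic bases with BRD9 and CDC26 shares 208 with PRPF4, both on the other strand. With a GC offset CENPB stood at -2.11, NDE1 at -1.55, NDEL1 at 1.19 and SUGT1 at 0.71. In the same fit TRIP13 stood at -1.81, MAD2L1BP at 1.39, ESPL1 at -0.97 and CDC26 at 0.86.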

How the data were processed

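The authors deposited 1 table of raw counts per Ensembl gene for 6 poly(A) RNA-seq libraries, whole numbers that were not normalized. Per the submitters' processing notes, the build is GRCh38, also called hg38. Which aligner, counting tool and annotation they used, and whether strand was used, is not given in the sources used here. All 58735 identifiers were found in GENCODE 29, which gave coordinates, joined exon lengths, exon overlaps and the GC content of the longest transcript.

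Groups were taken from the labels, which describe independent biological replicates (3 per group, 16962012 to 17827433 counts each). Replicates of each group were compared in pairs, and all differed by more than counting noise (chi-square over degrees of freedom 3.62 to 8.74). Genes were filtered with filterByExpr, scaled with TMM and tested with the robust quasi-likelihood F test of edgeR 4.0.16 (R 4.3.3, both directions) over 15160 genes, with Benjamini-Hochberg adjustment and a threshold of 0.05. Standard errors were derived from the log2 change and the square root of F. The code was tested on simulated counts. Alternatives were DESeq2 1.42.0, limma-voom (limma 3.58.1), other scalings and filters, a GC offset (spline, 5 degrees of freedom), a test against 1.2-fold, a replicate block and each library left out. An exon length offset was chosen after seeing the data.

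Members and lists were chosen with earlier results of these data known. All members may be named. Library values were given for the 8 members with the largest change and for 14 core members whatever their result, and for CENPE and CENPF after their values were seen. Of other lists, the 2 smallest p in each direction and FOXM1 were named, and ITGB3BP, BIRC5 and the markers were added. Of 10 processed copies named after members, 7 had 0 counts and the others 5 to 18 in all libraries together. Some overlaps of members with other genes and some markers are not reported here.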

Additional observations from a re-analysis of the deposited data

How the results depend on the processing

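The 22 falls and 15 rises among the members became 21 to 23 and 15 to 17 when any 1 library was left out, 21 and 17 with DESeq2, 18 and 14 against a 1.2-fold change, and 25 and 12 with library totals. The median of the members moved from -0.24 to -0.50 with library totals, where the median of all genes moved from -0.02 to -0.28, and to -0.34 with a GC offset, for which the cause was not tested. Without 1 library the median ran from -0.27 to -0.21. A change of sign was counted as a reversal where the member was called in either fit. By this rule a GC offset reversed CENPO (0.06), NSL1 (-0.21) and SKA2 (-0.28), and no other setting reversed a member. NDC80 changed sign without a call under some settings, reaching 0.06 with an exon length offset. The replicate numbers did not pair the libraries (correlations of deviations 0.024, -0.012 and 0.075 for numbers 1, 2 and 3), and a replicate block gave 21 falls and 15 rises, with CENPP the call lost. Counts limit SPC24 in curcumol and CENPP, and for abundant members the 3 libraries per group do.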
